A study of Mus musculus with 15 samples.

Results

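The genes described here were 9 genes of osteocytes and of mineral regulation in the mouse femur, namely Sost, Dmp1, Mepe, Phex, Fgf23, Pdpn, Enpp1, Ank and Phospho1. They were chosen by name, and every probe whose RefSeq transcript accession belonged to one of these symbols was taken, which gave 11 probes of the 55681 on the array and 9 genes of the 21154 that could be named. The samples came from male C57BL/6J mice, labelled 9-week old, that either received a segmental bone defect (SBD) in the femur or served as unoperated sham controls, and that were either flown to the International Space Station or kept on the ground in the same housing. G-Sham held 4 mice, FLT-Sham 4, G-Surgery 4 and FLT-Surgery 3, with 1 array per mouse. In the operated mice the missing segment of bone was held open by a polymer and tricalcium phosphate graft and a metal pin, and the collagen sponge placed there carried saline in place of a bone-forming drug. The labels call all of the tissue callus. According to the study's methods it was the midshaft of the femur without its ends, so that the sham samples were unbroken bone with its marrow. Labelled RNA of each mouse (Cy5, red) was hybridized together with 1 common reference RNA pooled from mouse cell lines (Cy3, green). The log2 ratio of Cy5 over Cy3 is the level used below, and a probe was taken as detected where its Cy5 signal was well above background by the scanner software's own test.

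Osteocytes are former osteoblasts that lie buried in mineralized bone and sense mechanical load. They secrete sclerostin (Sost), which blocks Wnt signalling in osteoblasts, and FGF23, a hormone that makes the kidney excrete phosphate. Dmp1 and the endopeptidase Phex restrain Fgf23, while Mepe is a matrix protein that can inhibit mineralization, and Pdpn (podoplanin, also called E11) marks the early osteocyte as it forms its processes. Mineral deposition itself turns on the balance of phosphate and pyrophosphate: Enpp1 makes pyrophosphate outside the cell, Ank exports its source from the cell, and Phospho1 releases phosphate inside matrix vesicles.

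The defining osteocyte genes were largely not detected in these samples. Sost, Dmp1 and Phex were above background on 0 of 15 arrays. Enpp1 was above background on 1 array, Phospho1 on 6, Mepe on 11, Ank on 12, and 1 probe each of Pdpn and Fgf23 on 15. The second probe of Pdpn was above background on 0 arrays and the second probe of Fgf23 on 1. In all, 4 of the 11 probes were never detected and 5 probes, 1 for each of 5 genes, were detected on 3 or more arrays, the minimum for a test. The name osteocyte genes is therefore kept for what the genes are known for and not as a description of the RNA measured here. Of the osteoblast genes, Col1a1 and Col1a2 were detected on 15 of 15 arrays and the osteoblast transcription factor gene Sp7 on 0. Transcripts of bone matrix were thus measured on each array. In such bulk samples, fewer cells of a type and less RNA per cell cannot be told apart. The study also names low RNA quality as a limit, possibly made worse by a freeze-thaw step. The part of RNA quality in the missing signals was not tested.

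**Figure D1:**
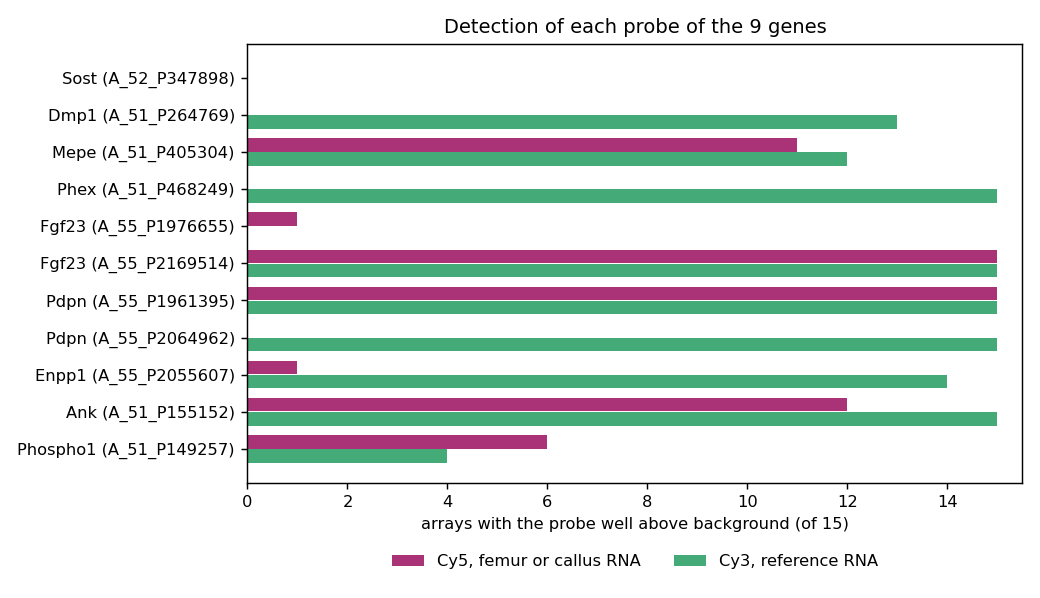
Number of the 15 arrays on which each of the 11 probes was well above background, for the femur or callus RNA (Cy5) and for the reference RNA (Cy3). The Phex probe, at 0 arrays in Cy5 and 15 in Cy3, and the second Pdpn probe, with the same numbers, were bright in the reference and not in bone.

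Over the series, 12895 to 18317 probes were detected per G-Sham array, 14841 to 21488 per FLT-Sham array, 14333 to 20734 per G-Surgery array and 12510 to 14284 per FLT-Surgery array. Differences were tested with limma, and a probe was called where it differed at least 2-fold with p of at most 0.01, the cut-off of the study's methods. The Benjamini-Hochberg adjusted p, over all probes tested, is given beside it. After adjustment at 0.05, 0, 0, 2 and 16 probes remained in FLT-Sham minus G-Sham, FLT-Surgery minus G-Surgery, G-Surgery minus G-Sham and FLT-Surgery minus FLT-Sham. These counts rested on single arrays: without FLT-Sham replicate 8 they were 606 in the first and 6168 in the last, and without FLT-Surgery replicate 1 they were 1347 in the second and 765 in the last. Unadjusted p was at most 0.05 for 1902, 2713, 1931 and 4655 probes in the same order. The split of directions over the array depended on scaling. The share of called probes that were higher was 33.3% in FLT-Surgery minus G-Surgery but 95% after a further loess normalization, 83.4% after normexp background correction with loess and 76.5% from Cy5 alone. In FLT-Surgery minus FLT-Sham those shares were 6.37%, 52.2%, 32.4% and 23.1%, in FLT-Sham minus G-Sham 89.6%, 65.0%, 28.6% and 72.4%, and in G-Surgery minus G-Sham 80.1%, 56.4%, 38.0% and 55.5%. The median log2 difference of all probes tested was 0.25 in FLT-Sham minus G-Sham, -0.20 in FLT-Surgery minus G-Surgery, 0.14 in G-Surgery minus G-Sham and -0.29 in FLT-Surgery minus FLT-Sham, and the genes below are read against these. FLT-Sham replicate 8 stood apart from its group: without it, the called probes in FLT-Sham minus G-Sham went from 394 to 2089.

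Pdpn, the early osteocyte gene, was the one gene of the 9 that passed the cut-off, and it was higher in callus than in sham femur on the ground. Its log2 ratio in G-Sham replicates 1, 3, 4 and 5 was -0.72, -0.43, -1.10 and -1.07. In G-Surgery replicates 1, 3, 4 and 5 it was 1.15, 0.89, 0.28 and -0.17. The lowest G-Surgery array lay above the highest G-Sham array, so that the groups did not overlap. The Cy5 signal of this probe, A_55_P1961395, ran from 2180 to 4172 in G-Sham and from 5672 to 14830 in G-Surgery. The difference was 1.37 on the log2 scale (SE 0.35, 95% confidence interval 0.58 to 2.15), or 2.58-fold. It passed the cut-off on fold and on unadjusted p, and the adjusted p was 0.294 in limma.

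Pdpn was thus 1 called gene of 5 tested in G-Surgery minus G-Sham, where 2.61% of all probes tested were called in either direction and 2.09% were called higher. It was also the 1 gene of the 5 with an unadjusted p of at most 0.05, beside 10.9% of all probes tested. Of all probes tested in that comparison, 5.32% were higher without overlap between the groups. The Pdpn difference was 1.04 to 1.37 under each other scaling and each other filter on dim probes. With slide as a block, it was 1.29 (SE 0.46) and no longer passed the cut-off. Within slide 1 the difference was 0.85 (3 G-Surgery arrays against 1 G-Sham array) and within slide 2 it was 1.79 (1 against 2). Leaving out G-Surgery replicate 1 gave 1.16, G-Surgery replicate 3 gave 1.25, G-Sham replicate 4 gave 1.28 and G-Sham replicate 5 gave 1.29, each short of the cut-off on p. Leaving out any of the other 4 arrays kept the call, with values of 1.40 to 1.60.

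In the flight mice Pdpn showed smaller differences. The FLT-Sham arrays, replicates 4, 6, 8 and 9, had log2 ratios of -1.39, -1.54, -0.31 and -1.06. The FLT-Surgery arrays, replicates 1, 3 and 5, had log2 ratios of -0.02, -0.14 and -0.59. FLT-Sham replicate 8 was the one sham array inside the range of the FLT-Surgery arrays. FLT-Surgery minus FLT-Sham came to 0.82 (SE 0.42, interval -0.14 to 1.79), with an adjusted p of 0.251 in limma. Without FLT-Sham replicate 8 it came to 1.08 (SE 0.34), with an adjusted p of 0.0483 in limma, and was still short of the cut-off, which is set on unadjusted p. FLT-Surgery minus G-Surgery was -0.79 for Pdpn (interval -1.67 to 0.10, adjusted p of 0.334 in limma), and the groups overlapped.

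Podoplanin is also known from lymphatic endothelium, so the markers of that cell type were read beside it. Of the 6 endothelial and lymphatic markers, Prox1 and Flt4 were detected on 0 arrays and Lyve1 on 1. The vascular markers Kdr, Pecam1 and Cdh5 were detected on 15, 14 and 5 arrays. The summed Cy5 signal of the 6 markers was 5019 to 15292 on the G-Sham arrays and 11925 to 24815 on the G-Surgery arrays. Cartilage markers moved in the same direction as Pdpn: the summed Cy5 signal of 6 chondrocyte markers was 530 to 989 in G-Sham and 1652 to 21991 in G-Surgery, although 3 of these 6 (Matn1, Matn3 and Col10a1) were detected on 0 arrays. The summed signal of 6 osteoclast markers was 3513 to 17228 in G-Sham and 19346 to 62286 in G-Surgery, also without overlap. That of 5 erythroid markers was lower in G-Surgery, at 1625 to 9785 against 12608 to 23656. Skeletal muscle markers were detected in each group, with a median summed signal of 1093600 in G-Sham and 828828 in G-Surgery. The part of these markers in the Pdpn difference was not tested. The second Pdpn probe, A_55_P2064962, had a Cy5 signal of 29.2 to 111.9 over the 15 arrays, not above background on any, and could not be tested.

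**Figure D2:**
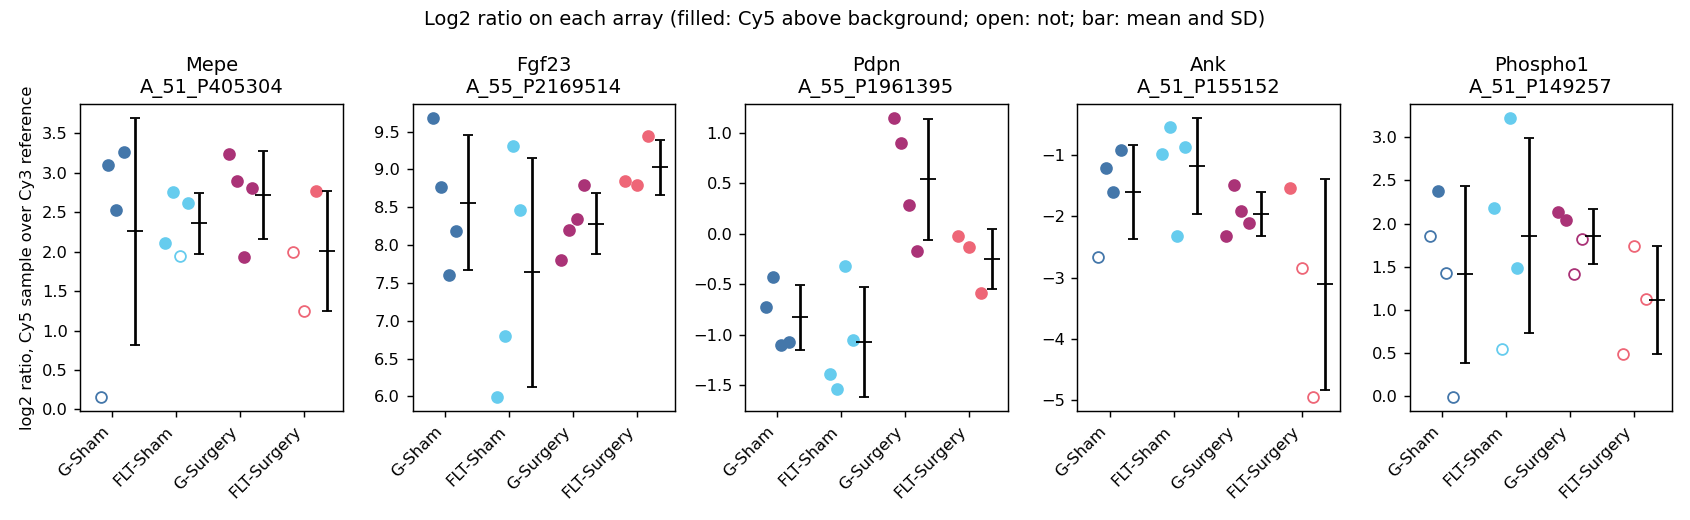
Log2 ratio of Cy5 over the Cy3 reference on each array for the 5 probes that could be tested, by group, with an axis of its own for each probe. Filled points were above background in Cy5 and open points were not, and the bar gives the group mean and SD. Pdpn in G-Surgery lies above G-Sham on each array, and 2 of the 3 FLT-Surgery points of Ank are open.

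Fgf23 was read by 2 probes that did not behave alike. Probe A_55_P2169514 was very bright in bone, with a Cy5 signal of 162217 to 742295 on the 15 arrays, and was not saturated on any. Before the scanner software's corrections its Cy5 median was 3682.5 to 12291 over a local background of 21 to 24. Probe A_55_P1976655, designed to the same transcript accession, had a Cy5 signal of 12.9 to 76.6 on 14 arrays and 283.1 on G-Sham replicate 1, the only array where it passed the background test. On that array the spot's uncorrected Cy5 median was 42 over a local background of 40.5, while the median local background of that array was 23. By Cy5 signal the bright probe ranked 30 to 240 among the probes of an array. Values of Fgf23 below are those of the bright probe, and which of the probes reads the transcript was not tested. They therefore stand for that probe and not for an established level of the transcript.

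The bright Fgf23 probe lay higher on each callus array of flown mice than on any callus array of ground mice, and the difference did not pass the cut-off. The log2 ratios were 7.81, 8.20, 8.34 and 8.79 on the G-Surgery arrays and 8.84, 8.80 and 9.45 on the FLT-Surgery arrays. The groups did not overlap, but the highest ground array, at 8.79, and the lowest flight array, at 8.80, lay next to each other. The difference was 0.75 (SE 0.33, interval -0.02 to 1.51), with an adjusted p of 0.309 in limma. Among all probes tested in this comparison 6.01% were higher without overlap. The value was 1.27 (SE 0.32) from Cy5 alone and 1.01 (SE 0.27) after normexp and loess, and passed the cut-off in both. It was 0.81 within slide 1 and 0.64 within slide 2.

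Fgf23 was spread widely in the sham femurs. The G-Sham arrays had log2 ratios of 9.68, 8.77, 7.60 and 8.18, a mean of 8.56 ± 0.89 (SD, n = 4). The FLT-Sham arrays had log2 ratios of 5.99, 6.79, 9.30 and 8.47, a mean of 7.64 ± 1.52 (SD, n = 4). FLT-Sham replicates 4 and 6 lay below each G-Sham array, and the other 2 within the G-Sham range. The difference, FLT-Sham minus G-Sham, was -0.92 (interval -2.68 to 0.84, adjusted p of 0.573 in limma), and ran from -1.48 without FLT-Sham replicate 8 to -0.37 without FLT-Sham replicate 4. FLT-Surgery minus FLT-Sham was 1.39 (interval -0.45 to 3.23, adjusted p of 0.285 in limma), 1.95 (adjusted p of 0.0541) without FLT-Sham replicate 8, and 0.84 where FLT-Sham replicate 4 was left out. G-Surgery minus G-Sham was -0.28 (interval -1.31 to 0.76), and its sign turned without G-Sham replicate 1, to 0.10.

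Mepe, the matrix glycoprotein gene, was present in each group and did not differ past the cut-off in any comparison. The log2 ratios were 0.15, 3.1, 2.53 and 3.26 in G-Sham, 2.11, 2.75, 1.95 and 2.62 in FLT-Sham, 3.24, 2.90, 1.93 and 2.81 in G-Surgery, and 2.0, 1.24 and 2.77 in FLT-Surgery. It was above background on 3 of 4 G-Sham, 3 of 4 FLT-Sham, 4 of 4 G-Surgery and 1 of 3 FLT-Surgery arrays. G-Sham replicate 1, at 0.15, was the lowest of the 15 arrays and was not above background. The difference was 0.10 for FLT-Sham minus G-Sham (interval -1.43 to 1.62), -0.71 for FLT-Surgery minus G-Surgery (interval -1.78 to 0.35), 0.46 for G-Surgery minus G-Sham (interval -1.08 to 2.0) and -0.35 for FLT-Surgery minus FLT-Sham (interval -1.43 to 0.72). The second was -0.33 to -1.10 with 1 array left out, -0.070 after further loess, -0.19 after normexp and loess and -0.16 from Cy5 alone. Without G-Sham replicate 1 the first became -0.61 and the third -0.24, so that neither direction held. Changes of 2-fold lie inside each of these intervals, in 1 direction at least.

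Ank, the pyrophosphate transporter gene, had its lowest group mean in the callus of flown mice in the deposited ratios, where it was near the limit of detection. After normexp and loess it was not lower there than in FLT-Sham or G-Surgery. Its log2 ratios were -2.67, -1.21, -1.60 and -0.92 in G-Sham and -0.98, -0.53, -2.32 and -0.86 in FLT-Sham. They were -2.32, -1.48, -1.92 and -2.10 in G-Surgery and -1.54, -2.84 and -4.95 in FLT-Surgery. The FLT-Surgery arrays spread over a wider range than all the other arrays together, and 2 of the 3, replicates 3 and 5, were not above background. On those 2 arrays the Cy5 signal was 551.7 and 164.5, against 1214 on FLT-Surgery replicate 1 and 829.0 to 1483 in G-Surgery.

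The difference of Ank in FLT-Surgery minus FLT-Sham was -1.94 (SE 0.82, interval -3.85 to -0.03), with an adjusted p of 0.202 in limma, short of the cut-off. Its unadjusted p was below 0.05. That held for 24.3% of all probes tested in that comparison, and the groups overlapped. Leaving out FLT-Surgery replicate 1 gave -2.73 (SE 0.76), past the cut-off, leaving out FLT-Surgery replicate 5 gave -1.02, and leaving out FLT-Sham replicate 8 gave -2.32 (adjusted p of 0.0623). Within slide 1 the difference was -2.92 and within slide 2 it was -0.30. After normexp and loess it was 0.032. FLT-Surgery minus G-Surgery was -1.16 (interval -2.86 to 0.55, adjusted p of 0.429 in limma), and 0.18 after normexp and loess. It was -0.23 without FLT-Surgery replicate 5 and -1.94 without FLT-Surgery replicate 1. Skeletal muscle markers and the number of detected probes were also low in the FLT-Surgery group: the summed Cy5 signal of the 8 muscle markers had a median of 73678 there (64565 to 974112), of 828828 in G-Surgery and of 3573750 in FLT-Sham. Their part in the Ank values was not tested. In the sham femurs the flight difference of Ank was 0.43 (interval -0.77 to 1.62), and ran from 0.070 without G-Sham replicate 1 to 0.81 without FLT-Sham replicate 8.

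Phospho1, the phosphatase of matrix vesicles, was detected on 1 of 4 G-Sham arrays, 3 of 4 FLT-Sham arrays, 2 of 4 G-Surgery arrays and 0 of 3 FLT-Surgery arrays. The log2 ratios were 1.86, 2.37, 1.43 and -0.01 in G-Sham, 2.18, 0.54, 3.23 and 1.49 in FLT-Sham, 2.13, 2.04, 1.42 and 1.82 in G-Surgery, and 0.49, 1.73 and 1.12 in FLT-Surgery. The groups overlapped in each comparison. Since no FLT-Surgery array was above background, no fold is given against that group. FLT-Surgery minus FLT-Sham had an adjusted p of 0.459 in limma, and its sign turned with Cy5 alone. The ground and flight callus were not tested against each other, because only 2 arrays were above background. FLT-Sham minus G-Sham was 0.45 (interval -1.11 to 2.01), -0.028 without G-Sham replicate 5 and -0.0092 without FLT-Sham replicate 8, and G-Surgery minus G-Sham was 0.44 (interval -0.68 to 1.56).

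Flight against ground therefore gave 0 called genes of the 9 in the sham femur, with 5 tested, and 0 of the 9 in the callus, with 4 tested. In limma, unadjusted p was at most 0.05 for 0 of them in either comparison, where 1.99% and 3.14% of all probes tested were called and 9.62% and 16.4% had an unadjusted p of at most 0.05. In FLT-Surgery minus FLT-Sham 0 of the 5 tested were called and 1, Ank, had an unadjusted p of at most 0.05, beside 6.64% of all probes called. A test of whether the flight difference itself differed between callus and sham femur called 0 of the 5, with 0 at an unadjusted p of at most 0.05, beside 5.33% of all probes called and 19.5% at that unadjusted p. The values of that test were 1.67 for Fgf23 (interval -0.34 to 3.68), -1.58 for Ank (interval -3.59 to 0.42), -0.81 for Mepe and -0.54 for Pdpn. No size is given for Phospho1, which was above background on 0 of 3 FLT-Surgery arrays. Adjusted p of the 5 genes lay between 0.321 and 0.609 in limma. Without FLT-Sham replicate 8 the Fgf23 value was 2.22 (SE 0.81, adjusted p of 0.0742 in limma). It fell to 1.12 when FLT-Sham replicate 4 was left out instead. The 95% interval of each of the 5 genes reached past a 2-fold change, in 1 direction or both, in each comparison in which it was tested, so that 3 or 4 arrays a group could not bound a change at that size.

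**Figure D3:**
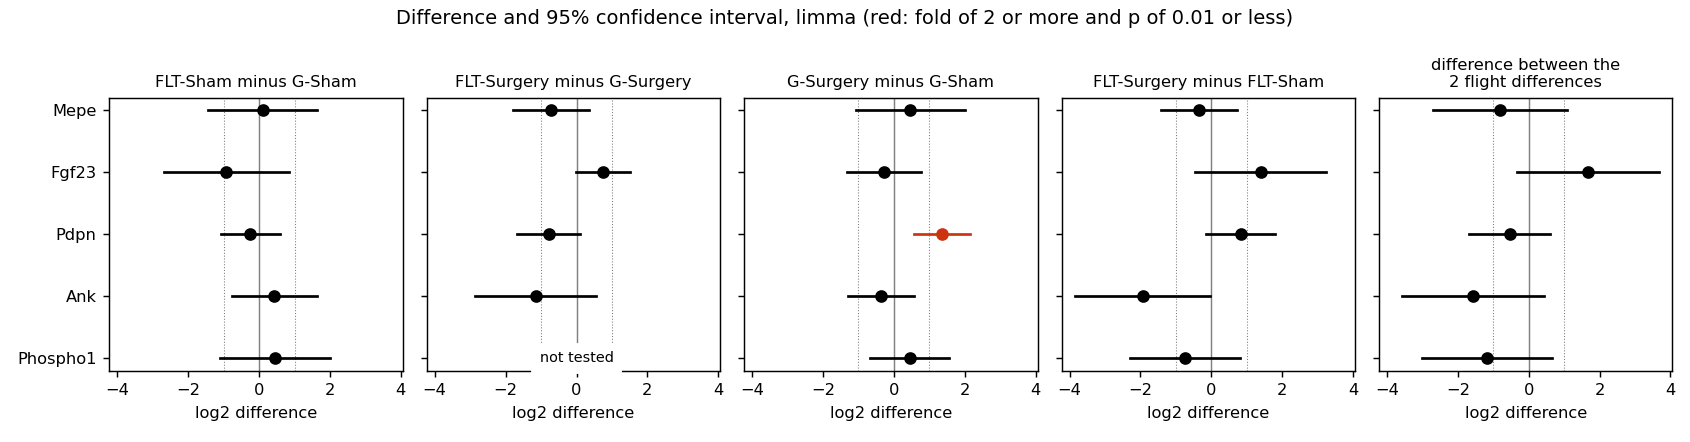
Log2 difference (point) and 95% confidence interval (line) of the 5 tested genes in the 4 comparisons and in the test of the difference between the 2 flight differences. Dotted lines mark a 2-fold change, and red marks a value past the cut-off, which was Pdpn at 1.37 in G-Surgery minus G-Sham. Phospho1 values that involve FLT-Surgery, where it was above background on 0 of 3 arrays, are set in part by the background.

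Sost, Dmp1, Phex and Enpp1 had no measured level in bone and give an upper range only. The Sost probe, A_52_P347898, had a Cy5 signal of 14.1 to 80.6 over the 15 arrays, with the highest value on FLT-Sham replicate 6, and was not above background in the reference either. The Dmp1 probe, A_51_P264769, had a Cy5 signal of 23.1 to 127.6, with the highest value on FLT-Sham replicate 8, and was above background in the reference on 13 arrays. The Phex probe, A_51_P468249, had a Cy5 signal of 23.6 to 61.5 and a reference signal of 695.3 to 1386, so that the probe worked on each array while bone gave no signal above background. The log2 ratio of Phex, -5.60 to -4.08, is accordingly set by the background in Cy5.

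The Enpp1 probe, A_55_P2055607, had a Cy5 signal of 17.0 to 32.8 on 14 arrays and of 380.5 on G-Sham replicate 1, the same array on which the dim Fgf23 probe passed. On that array the uncorrected Cy5 median of the Enpp1 spot was 44, below its local background of 55. The Enpp1 reference signal was above background on 14 arrays. With detection on 1 array, Enpp1 was not tested, and G-Sham replicate 1 gives no second measurement of it.

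Along the chromosome, the protein-coding genes Dspp, Dmp1, Ibsp, Mepe and Spp1 stand next to each other in that order. They encode one family of secreted phosphoproteins of mineralized matrix, and their detection differed. Dspp and Dmp1 were detected on 0 arrays, Mepe on 11, and the brightest probes of Ibsp, the bone sialoprotein gene, on 14 and of Spp1, the osteopontin gene, on 15. Mepe and Spp1 were called in none of the comparisons, and Ibsp in 3. Ibsp was 2.35 higher in FLT-Sham than in G-Sham (SE 0.47, adjusted p of 0.347 in limma), on the log2 scale, and 4.02 by its other probe. It was 3.1 higher in G-Surgery than in G-Sham (SE 0.75, adjusted p of 0.277 in limma), and 2.75 by its other probe, which did not pass the cut-off. The flight difference of Ibsp itself differed between callus and sham femur by -3.06 (SE 0.95, adjusted p of 0.176 in limma) and by -5.75 with the other probe. The called values kept their direction under the other scalings, and several lost the call. Neither probe passed from Cy5 alone in FLT-Sham minus G-Sham, at 1.55 and 2.68. In G-Surgery minus G-Sham the brightest probe did not pass after normexp and loess, at 1.51, or after further loess, at 2.69. Its value for the difference of flight differences did not pass after further loess (-1.23), normexp and loess (-1.90) or from Cy5 alone (-1.84). With 1 array left out it passed in 8 of 15 fits, and did not pass without FLT-Sham replicate 8, at -2.99, among others.

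Of 20 further genes of mineral regulation, 12 were tested in FLT-Surgery minus FLT-Sham, and 3 were called lower and 0 higher in callus of flown mice, beside 6.21% and 0.423% of all probes. All 3 were detected on 4 of 4 FLT-Sham and 0 of 3 FLT-Surgery arrays, so that they passed the filter on dim probes only through the group in which they were higher, and the count is shaped by that filter. Alpl, tissue-nonspecific alkaline phosphatase, which breaks down the pyrophosphate that Enpp1 and Ank supply, was detected on 4 of 4 FLT-Sham arrays, with log2 ratios of 1.76 to 2.86. It was detected on 0 of 3 FLT-Surgery arrays, with log2 ratios of -2.99 to -1.22. In the deposited signals Alpl was at least 12.3-fold higher in sham femur than in callus of flown mice, with an adjusted p of 0.0398 in limma. This bound sets the FLT-Sham mean against the lowest signal that passed the background test on each FLT-Surgery array, or the probe's own signal where that was higher, and it holds for that scaling alone. The fitted difference was -3.40 after further loess, -3.34 from Cy5 alone and -1.20 after normexp and loess, with adjusted p of 0.118, 0.0848 and 0.238 and the cut-off passed in each. Pth1r, the receptor of parathyroid hormone, was at least 12.2-fold higher in sham than in callus of flown mice, and Slc20a2, a phosphate transporter, at least 7.58-fold, on the same scale, both with an adjusted p of 0.136 in limma. After normexp and loess the differences were -1.65 and -0.66, short of the cut-off. Both calls were also lost without FLT-Surgery replicate 3 or FLT-Surgery replicate 5. Without FLT-Sham replicate 8, Alpl, Pth1r and Slc20a2 stayed lower in callus and kept their calls. The median log2 difference of the 12 genes was -1.11, beside -0.29 over all probes tested. Markers of several other cell types were lower in the same comparison, though not all. The median summed Cy5 signal in FLT-Sham and FLT-Surgery was 31264 and 480 for adipocyte markers, 101108 and 3304 for erythroid markers, 43488 and 10686 for osteoclast markers and 3760 and 599 for chondrocyte markers. It was higher in FLT-Surgery for endothelial and lymphatic markers, at 13605.7 and 21250.5, and for osteocyte markers, at 399010 and 485167. Their part in the list's values was not tested.

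In FLT-Sham minus G-Sham, 1 of 12 tested genes of that list was called higher (Ibsp) and 0 lower, beside 1.78% and 0.207% of all probes, and the median difference was 1.18 beside 0.25. Median summed Cy5 signals in G-Sham and FLT-Sham were 2379 and 31264 for adipocyte, 21284 and 101108 for erythroid and 9304 and 43488 for osteoclast markers. They were 13657 and 13606 for endothelial and lymphatic markers and 440610 and 399010 for osteocyte markers. The part of these markers was not tested. In G-Surgery minus G-Sham, 2 of 12 were called higher (Ibsp and Fgfr1) and 0 lower, beside 2.09% and 0.519% of all probes. Fgfr1 was called by 1 probe, at 1.18, while its other tested probe was at -0.48, so that no direction can be given for Fgfr1 there. The Fgfr1 call was lost after normexp and loess and from Cy5 alone, and was kept in 2 of 8 fits with 1 array left out. For the difference of flight differences 0 of 13 were called higher and 3 lower (Alpl, Ibsp and Fgfr1), beside 0.358% and 4.97%. Fgfr1 was called there by 1 probe, at -2.16, beside -0.42 and 1.25 by its other tested probes. The Alpl call was lost after further loess and after normexp and loess, and was kept in 6 of 15 fits with 1 array left out. It also rests on FLT-Surgery, where Alpl was detected on 0 of 3 arrays. In FLT-Surgery minus G-Surgery, where 1.04% of all probes were called higher and 2.09% lower, 10 were tested and Fgfr1, a receptor of FGF23, was called in both directions by different probes, at 1.14 and -1.30, so that no direction can be given for it. The higher value kept its call after further loess, at 1.75, and lost it after normexp and loess and from Cy5 alone, while the lower value lost it in all 3. The FGF23 co-receptor gene Kl was detected on 0 arrays.

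Of 18 further genes of the osteocyte network, 10 were tested in G-Surgery minus G-Sham, where 2 were called higher and 1 lower, beside 2.09% and 0.519% of all probes. The median of the 10 was 0.34, beside 0.14 over all probes tested. Fbln7, an adhesion protein gene, was 2.79 higher (adjusted p of 0.300 in limma), and Lrp6, the Wnt co-receptor that sclerostin binds, 1.49 higher (adjusted p of 0.270 in limma). The other tested probes of Fbln7 and Lrp6, at 0.98 and 0.61, were not called. Ptprz1, a receptor phosphatase gene, was lower by both of its probes, at -1.99 for the one and by at least 5.34-fold in the deposited signals for the other, which was detected on 3 of 4 G-Sham and 0 of 4 G-Surgery arrays. Normexp with loess kept each direction and took all 3 below the cut-off, at 0.57 for Fbln7, 0.99 for Lrp6 and -0.60 and -0.54 for the Ptprz1 probes. Leaving out 1 array kept the call of Lrp6 in 8 of 8 fits and that of Fbln7 in 4. The Ptprz1 probe at -1.99 kept its call in 5 of 8 fits, and the other in 5 of the 5 in which it was tested. In FLT-Surgery minus FLT-Sham 1 of 11 was called, Ptprz1, again lower in callus, beside 6.64% of all probes in either direction. In FLT-Surgery minus G-Surgery 1 of 10 was called, Fbln7, at -2.08, beside 3.14%. That call was lost after further loess (-0.98), after normexp and loess (-0.45) and from Cy5 alone (-1.51). It was kept in 2 of 7 fits with 1 array left out, and the other Fbln7 probe, at -0.97, was not called. In FLT-Sham minus G-Sham 0 of 11 were called in limma, beside 1.99%, and 0 had an unadjusted p of at most 0.05. Tnfsf11, the osteoclast signal RANKL of osteocytes, was detected on 0 arrays.

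Among 11 osteoblast and bone matrix genes, which share Alpl, Ibsp, Spp1 and Bglap with the list of mineral regulation, the calls beyond Alpl and Ibsp in the deposited values were limited to Bglap2, an osteocalcin gene with near-identical copies. Under other scalings Sparc (further loess) and Col1a2 (normexp and loess) were called higher in G-Surgery minus G-Sham. Of the 8 tested in FLT-Surgery minus FLT-Sham, 2 were called lower (Alpl and Bglap2) and 0 higher, beside 6.21% and 0.423% of all probes. The value of Bglap2 there was -3.38 (adjusted p of 0.144 in limma), short of the cut-off after further loess. The Bglap2 call was kept in 3 of 7 fits with 1 array left out. The Bglap probe, at -2.06, was not called, and whether the Bglap2 probe also reads the copies was not tested. The median of the 8 was -0.20, beside -0.29 over all probes tested.

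**Figure D4:**
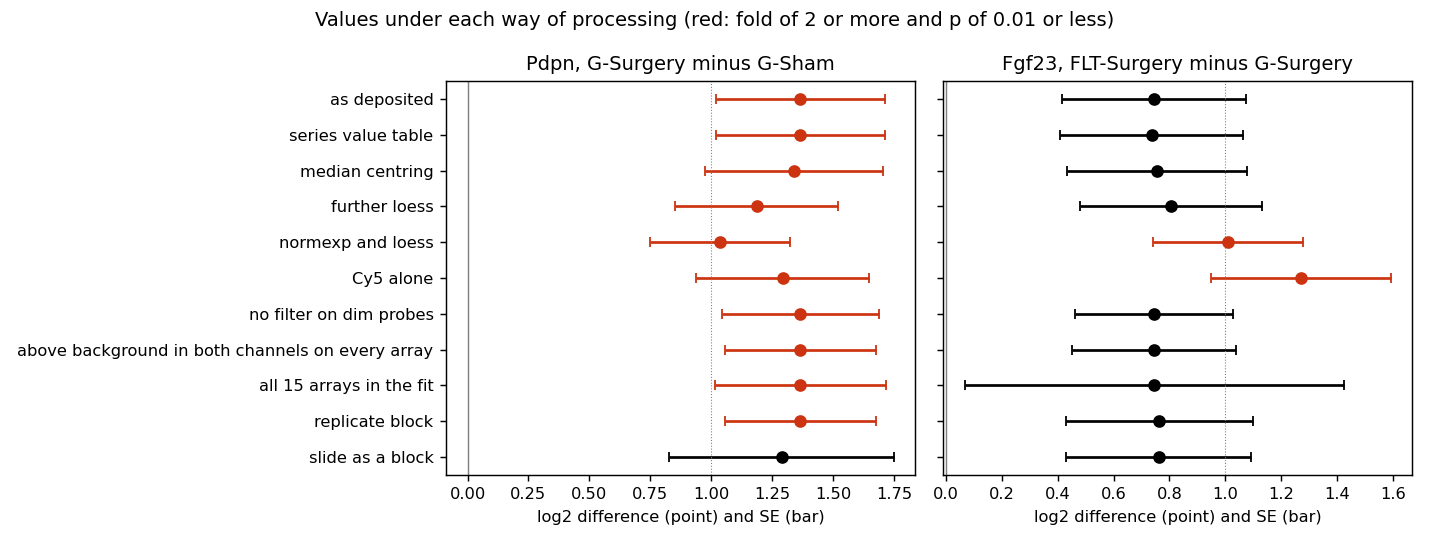
Log2 difference (point) and SE (bar) of Pdpn in G-Surgery minus G-Sham and of Fgf23 in FLT-Surgery minus G-Surgery under the values as deposited and 10 other ways of processing. Red marks a value past the cut-off: Pdpn passed in each but slide as a block (1.29), and Fgf23 passed from Cy5 alone (1.27) and after normexp and loess (1.01).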

How the data were processed

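RNA of 15 mouse femur or callus samples was measured on 2-colour Agilent arrays on 3 slides, with the sample in Cy5, the reference in Cy3 and no dye swap. The authors' scanner software (Agilent Feature Extraction 12.0 per the labels) subtracted background, normalized the dyes by a linear and a lowess step and wrote the deposited log10 ratio. The deposited intensity columns are the processed, median and local background signals and are not comparable between probes. The deposited series value table holds the same log10 ratios, within 0.005. The number of arrays limits the precision.

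Log10 ratios were converted to log2. Spots marked as outliers were set to missing, and spots of a probe were averaged. Transcript accessions were named through the RefSeq gene table, which gave 1 symbol to 28026 of 55681 probes. The test was limma 3.58.1 (R 4.3.3) on each probe whose Cy5 signal passed the background test on 3 or more of the arrays in a comparison, 2 groups at a time, and over all 15 arrays for the difference of flight differences. The cut-off was a fold change of 2 with p of at most 0.01. Bounds used Cy5 after Aquantile normalization. The script was tested on simulated data. Alternatives were a further loess, median centring, normexp (offset 50) on median signals with loess, Cy5 minus its 75th percentile, the series value table, other filters, slide or replicate number as a block, all arrays in 1 fit, and each array left out. Leaving out each array for the called genes of the lists was added after seeing the data. Normexp was planned on mean signals and used the median signals of these files. All probes of the 9 genes are named, with a brightest probe, by mean Cy5, where 1 value is given. Genes of the lists are named where they passed the cut-off or stand beside a result. The 9 genes and the lists were chosen with earlier results of these data known. P-values measure the spread between arrays of separate mice. Slide 3 held G-Sham replicate 4 alone, which adds nothing to a fit with slide as a block.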

Additional observations from a re-analysis of the deposited data

Results flagged for a closer look

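Among 17 sets of 4 arrays in which a probe of the 9 genes was above background at least once, 1 held an array far from the others. The dim Fgf23 probe A_55_P1976655 had a log2 ratio of 4.90 on G-Sham replicate 1, while the other 3 G-Sham arrays lay between -0.03 and 0.66. The gap took 0.859 of the whole range, above Dixon's 95% critical value for 4 values. Chance flags about 1 in 20 such sets, or 0.85 of 17. The flagged spot's uncorrected Cy5 median was 42 over a local background of 40.5, while the median local background of that array was 23. The bright Fgf23 probe was highest among the G-Sham arrays on that replicate, at 9.68 beside 7.60 to 8.77, which is no second measurement of the dim probe.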

How the results depend on the processing

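Of 206 values of single genes under 10 settings other than leaving out an array, 189 kept their direction and their side of the cut-off and 14 turned their sign, none of these past the cut-off. The count of called genes among the 9 moved from 0 to 1 (Fgf23) in FLT-Surgery minus G-Surgery after normexp and loess and from Cy5 alone, at 1.01 and 1.27, and from 1 to 0 (Pdpn) in G-Surgery minus G-Sham with slide as a block, at 1.29. Leaving out 1 array gave 0 to 1 called genes in G-Surgery minus G-Sham and in FLT-Surgery minus FLT-Sham, and 0 in the rest. The causes were not tested.

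Signs turned in these cases. For Mepe, FLT-Sham minus G-Sham was -0.59 after further loess, -0.021 after normexp and loess and -0.44 from Cy5 alone, FLT-Surgery minus FLT-Sham was 0.84 after further loess and 0.39 from Cy5 alone, G-Surgery minus G-Sham was -0.080 after normexp and loess, and the difference of flight differences was 0.52 after further loess and 0.28 from Cy5 alone. For Ank after normexp and loess, FLT-Sham minus G-Sham was -0.053, FLT-Surgery minus G-Surgery 0.18, FLT-Surgery minus FLT-Sham 0.032 and the difference of flight differences 0.23. For Phospho1 from Cy5 alone, FLT-Sham minus G-Sham was -0.051 and FLT-Surgery minus FLT-Sham 0.14. With 1 array left out, Mepe ran from -0.61 to 0.43 in FLT-Sham minus G-Sham, from -0.24 to 0.79 in G-Surgery minus G-Sham and from -0.73 to 0.027 in FLT-Surgery minus FLT-Sham, Phospho1 from -0.028 to 0.89 in FLT-Sham minus G-Sham and from -0.034 to 0.59 in G-Surgery minus G-Sham, and Fgf23 from -0.60 to 0.10 in G-Surgery minus G-Sham.

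The number of called probes over the array was 394, 520, 463, 1272 and 1162 in the 4 comparisons and the difference of flight differences. It ran from 35 to 683, 202 to 1297, 205 to 600, 296 to 2596 and 327 to 1623 under the other settings, and from 94 to 2089, 246 to 2055, 243 to 755, 297 to 4931 and 543 to 3790 with 1 array left out. Replicate numbers did not pair the arrays: same-numbered arrays deviated together with correlations of -0.36 to 0.24 in the callus groups and -0.16 to 0.35 in the ground groups, and 0 of 3 and 1 of 4 arrays correlated best with their own number. The replicate block left 0 and 1 called genes, and moved the called probes from 520 to 202 in FLT-Surgery minus G-Surgery and from 463 to 391 in G-Surgery minus G-Sham. No paired analysis was possible for the other comparisons because FLT-Sham shares 1 number with G-Sham and 0 with FLT-Surgery. Signal near background limited what could be read for Sost, Dmp1, Phex, Enpp1 and Phospho1.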
